A study of Mus musculus with 8 samples.

Results

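Kainate receptors, the delta receptor GluD1 and the kainate receptor auxiliary proteins were examined in bulk RNA of the adult mouse brain. The group was chosen by name as Grik1, Grik2, Grik3, Grik4, Grik5, Grid1, Neto1 and Neto2, and all 8 symbols were found among the 24343 genes of the deposited table. The 8 genes were represented by 10 RefSeq transcripts, 2 each for Grik1 and Grik2 and 1 for each of the others. Whole brains of 3 C57BL/6NCrl mice aged 56 to 62 days were sequenced without any treatment, giving 3 libraries each for mouse 1 and mouse 2 and 2 for mouse 3. The submitters did not state what distinguishes the libraries of a mouse. The sex of these mice is not given in the labels. The design holds a single condition, so the comparisons are between genes, between transcripts and between individual mice.

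Kainate receptors are tetrameric cation channels gated by glutamate that act at both presynaptic and postsynaptic sites. GluK1, GluK2 and GluK3 (encoded by Grik1, Grik2 and Grik3) bind kainate with low affinity and can form channels by themselves, whereas GluK4 and GluK5 (Grik4 and Grik5) bind it with high affinity and need a low-affinity partner to form a functional channel. GluD1 (Grid1) belongs to the same superfamily and links postsynaptic membranes to presynaptic neurexins through secreted cerebellins, and Neto1 and Neto2 are transmembrane CUB-domain proteins that set the gating of kainate receptors.

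Levels are given as FPKM, a measure of read density scaled to transcript length and sequencing depth, summed over the transcripts of a gene, averaged over the libraries of a mouse and then over the mice, with the SD over the mice (n = 3). Sequence on transcripts ranged from 1.31 gigabases in library 1 of mouse 2 to 2.02 gigabases in library 3 of mouse 1. Mouse 3 stood apart in several measures that touch the results. Summed FPKM of oligodendrocyte markers was 2.04 times as high in mouse 3 as in mice 1 and 2, and that of astrocyte markers 1.55 times as high, with libraries at 415 and 440 in mouse 3 against 264 to 286 in the others. The 4 neuronal markers summed to 0.856 times their level in mice 1 and 2 and the 4 forebrain excitatory markers to 0.825 times, whereas the 4 cerebellar markers summed to 1.41 times. The cerebellar ratio came mainly from library 2 of mouse 3, at 342. Library 1 of mouse 3 was at 213, and the libraries of mice 1 and 2 were at 178 to 206. Endothelial and blood markers summed to 1.40 and 1.38 times their level in mice 1 and 2, and striatal markers to 0.848 times. For microglia, choroid plexus, oligodendrocyte precursor and pituitary markers the ratios were 1.10, 1.04, 0.960 and 0.918. None of the 12 marker lists had a gene at 0 in every library, and 4 of 5 pituitary markers were at 0 in at least 1 library. Across 13001 genes, the deviation of a gene from its mean over the libraries rose with transcript length in mice 1 and 2 (Spearman's rho across genes 0.183 to 0.503) and fell with it in mouse 3 (-0.365 and -0.576). The part of marker genes and of transcript length in the differences below was not tested beyond the values given. In bulk RNA, fewer cells of a type and less RNA per cell cannot be told apart.

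All 8 genes were expressed above 1 FPKM in every library, and their levels spanned 8.84-fold from Grik1 to Grik5. Grik5 was the most abundant at 35.7 ± 1.60 FPKM, at rank 1858 of 24343 genes. Neto1 (15.3 ± 2.53 FPKM), Grid1 (14.6 ± 1.27), Neto2 (13.9 ± 1.07) and Grik2 (11.6 ± 0.950) followed within a narrow range. Grik3 (7.24 ± 1.71 FPKM), Grik4 (6.00 ± 0.493) and Grik1 (4.05 ± 0.495) were the lowest, with Grik1 at rank 9593. The gap between Grik5 and Neto1 was 2.33-fold and was present in 8 of 8 libraries. Of the neighbouring pairs in this order, 3 had overlapping ranges of their mouse means. Neto1 and Grid1 were in this order in 2 of 3 mice, and Grik3 and Grik4 in 2 of 3 mice. Grid1 and Neto2 were in this order in 3 of 3 mice but in 6 of 8 libraries. Their log2 ratio within a mouse was 0.072 ± 0.017 (SD over the mice). Of the 28 pairs of genes, 25 kept their order in all 3 mice. An exact sign-flip test over 3 mice cannot give a two-sided p below 0.25, so no p is given for the order. The coefficient of variation between mice was lowest for Grik5 (4.49%) and highest for Grik3 (23.7%), against a median of 12.3% over the genes with at least 1 FPKM.

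**Figure D1:**
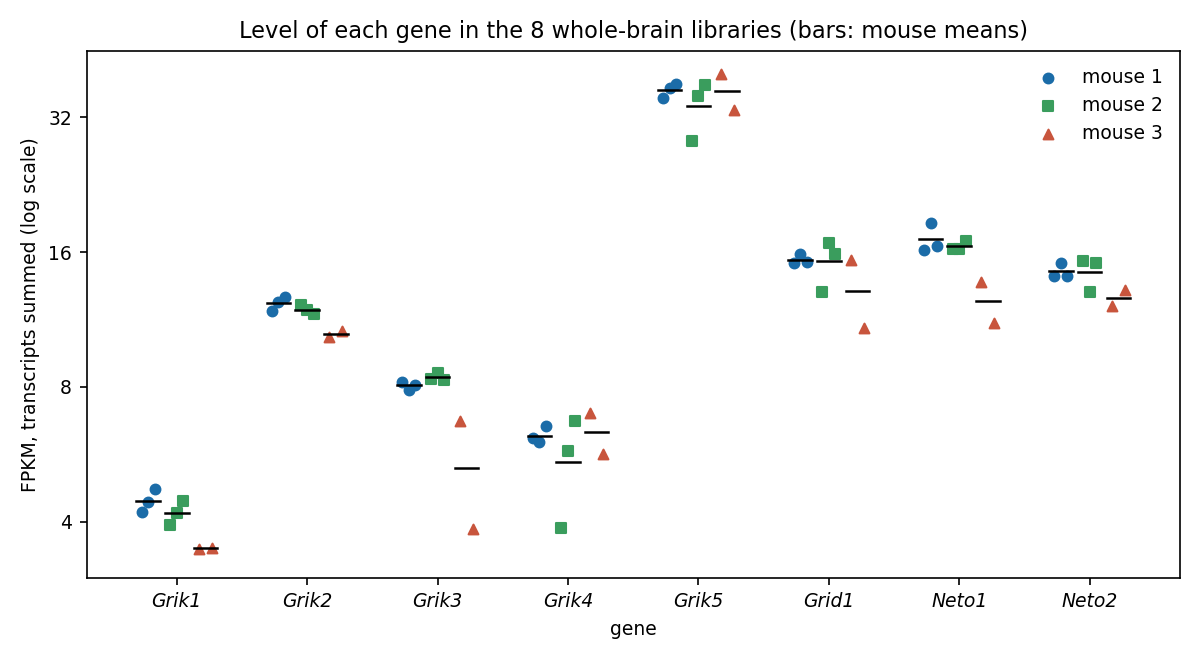
FPKM of the 8 genes (y axis, log scale, transcripts summed) in each of the 8 libraries, with 1 symbol per library and a bar at the mean of each mouse. Grik5 lies above the other genes in every library, and the 2 libraries of mouse 3 lie below the other 6 for Grik1, Grik2, Grik3 and Neto1. The libraries of mouse 3 have this position for 21.7% of the 13001 genes tested.

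The 5 kainate receptor subunits summed to 64.6 ± 2.95 FPKM. The 4 AMPA receptor subunits summed to 247 ± 12.4 FPKM and the 7 NMDA receptor subunits to 88.0 ± 14.5 FPKM, so that kainate subunit RNA was the least abundant of the ionotropic glutamate receptor classes compared here, and this order held in 8 of 8 libraries. The ratio of AMPA to kainate subunit FPKM was 3.84 ± 0.167, with libraries between 3.47 and 4.57. The ratio of NMDA to kainate subunit FPKM was 1.36 ± 0.188, and the lowest library, at 1.06, was library 2 of mouse 3. Neto1 and Neto2 together amounted to 29.2 ± 3.59 FPKM, or 1 FPKM for every 2.23 ± 0.215 FPKM of kainate subunits.

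Grik5 alone made up 55.3 ± 3.05% of the summed kainate subunit FPKM. Grik2 contributed 18.0 ± 0.895%, Grik3 11.2 ± 2.52%, Grik4 9.26 ± 0.884% and Grik1 6.27 ± 0.521%. RNA of the 2 high-affinity subunits therefore exceeded that of the 3 low-affinity subunits in every library, with a share of 64.6 ± 3.92%. In mouse 1 the share was 63.1%, 63.7% and 63.5% in the 3 libraries, in mouse 2 it was 56.8%, 62.7% and 64.5%, and in mouse 3 it was 69.6% and 68.3%. Both libraries of mouse 3 lay above the 6 others, and library 1 of mouse 2, the library with the fewest bases read, was the lowest. The summed level of the low-affinity subunits was 24.3 to 25.6 FPKM in the libraries of mice 1 and 2 and 20.5 and 18.0 FPKM in mouse 3, without overlap. That of the high-affinity subunits was 32.2 to 44.5 FPKM in mice 1 and 2 and 46.8 and 38.9 FPKM in mouse 3, and these ranges overlapped. Of the 13001 genes tested below for differences between the mice, 21.7% had both libraries of mouse 3 below all 6 others and 26.5% had both above. Such a separation of mouse 3 was therefore common and not particular to the kainate subunits. These percentages describe single genes and not sums or shares. The subunit shares are of RNA and not of protein or of assembled channels.

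**Figure D2:**
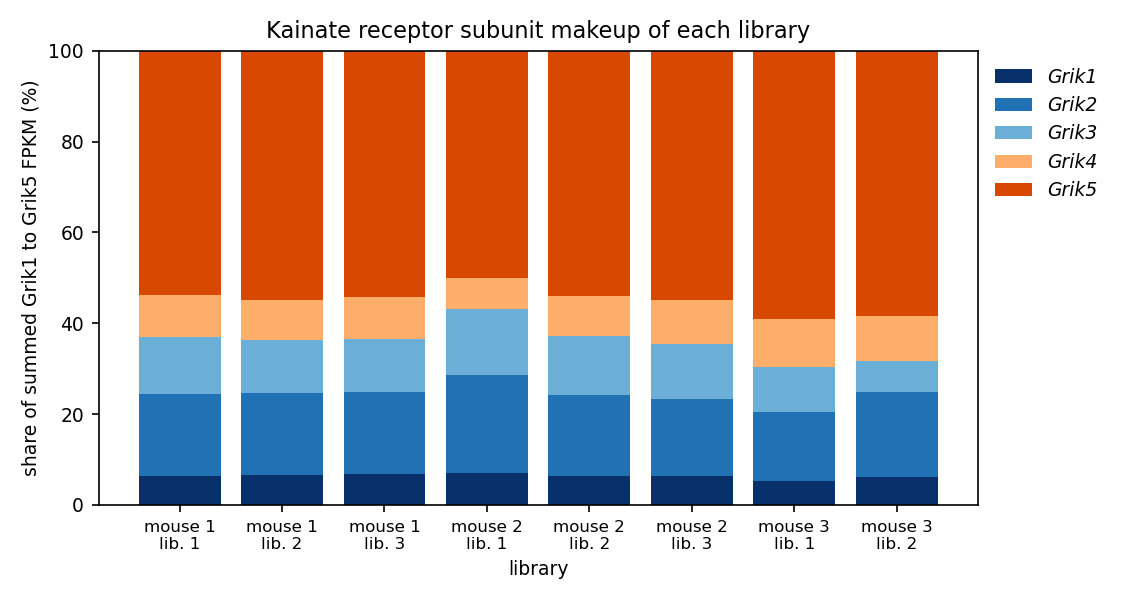
Share of the summed FPKM of Grik1 to Grik5 (y axis, %) taken by each subunit in each library (x axis), with the low-affinity subunits in blue and the high-affinity subunits in orange. Grik5 takes 50.0% to 59.2% of the sum in every library, and the 2 libraries of mouse 3 have the largest high-affinity share.

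Grik1, which encodes GluK1, lies on the minus strand of chromosome 16 (chr16:87895900-88290265, GRCm38). Its level was 4.20, 4.43 and 4.73 FPKM in mouse 1, 3.93, 4.18 and 4.44 FPKM in mouse 2, and 3.49 and 3.50 FPKM in mouse 3. Both libraries of mouse 3 were below all others, and the libraries of mice 1 and 2 overlapped.

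Both Grik1 and Grik2 were deposited as a pair of transcripts that differ by 87 bases, and in the annotation this difference was a single exon, the 16th of 17. In both genes 854 codons precede the exon, which places it in the stretch encoding the intracellular C-terminal tail. In Grik1 (chr16:87896809-87896895, minus strand) all 87 bases are coding and add 29 codons, so that the transcript with the exon encodes 934 amino acids and the one without it 905. In Grik2 (chr10:49104979-49105065, minus strand) the exon holds 15 codons and then a stop codon, followed by 39 untranslated bases, so that the transcript with the exon encodes 869 amino acids and the one without it 908. The exon sequences are shown because they set apart the transcripts compared here, with the 16th codon in capitals: it is the stop codon in Grik2 and an arginine codon in Grik1, which has 0 stop codons in frame. The Grik2 sequence covers chr10:49105018-49105065, from the first base of the exon to the stop codon.
Grik1 alternative exon: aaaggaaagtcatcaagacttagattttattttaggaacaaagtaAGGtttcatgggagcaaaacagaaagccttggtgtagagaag
Grik2 alternative exon: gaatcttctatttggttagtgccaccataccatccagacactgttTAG
The 2 exons had the same base at 15 of the 48 positions compared without gaps. In the transcripts that skip the exon, translation runs on directly into the last coding exon, which adds 51 codons in Grik1 (chr16:87896196-87896351, minus strand) and 54 in Grik2 (chr10:49101108-49101272, minus strand). These endings are shown because the transcripts that skip the exon end in them, with the stop codon in capitals. In Grik1 the transcript with the exon has the same ending, since its 29 added codons keep the reading frame. In Grik2 translation of the transcript with the exon stops before this ending.
Grik1 last coding exon: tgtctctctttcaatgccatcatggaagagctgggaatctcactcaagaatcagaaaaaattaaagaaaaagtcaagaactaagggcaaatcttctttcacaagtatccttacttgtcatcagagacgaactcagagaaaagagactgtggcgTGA
Grik2 last coding exon: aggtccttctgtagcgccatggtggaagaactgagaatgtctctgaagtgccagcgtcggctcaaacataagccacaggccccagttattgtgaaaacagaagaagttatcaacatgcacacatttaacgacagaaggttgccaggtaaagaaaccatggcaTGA

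**Figure D3:**
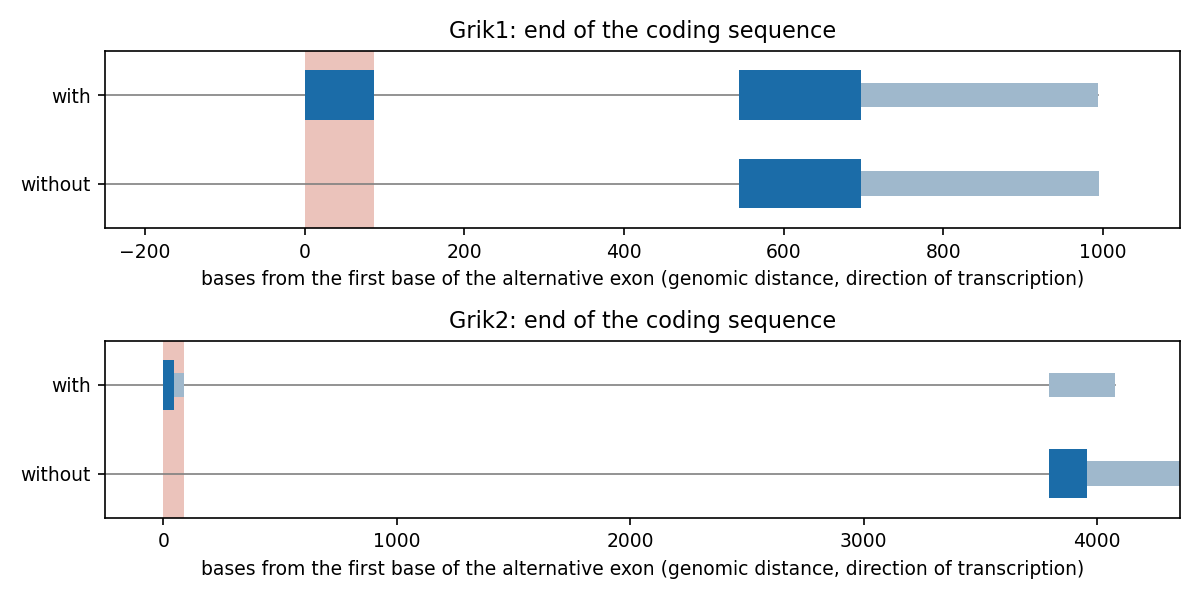
Exons at the 3′ end of Grik1 (top) and Grik2 (bottom) in the transcripts with and without the 87-base exon, from the GENCODE annotation of GRCm38; the x axis is the distance in bases from the first base of that exon, and the red band marks it. Tall dark boxes are coding and low pale boxes are untranslated, the stop codon included, and the untranslated end of the lower Grik2 transcript runs on past the right edge. In Grik1 the exon is coding over its whole length, and in Grik2 coding ends within it.

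For Grik1 the transcript without the exon, NM_010348, accounted for 63.2 ± 1.28% of the gene's FPKM and the transcript with it, NM_146072, for 36.8 ± 1.28%. The small SD over mouse means hid a wide spread between libraries. The share of NM_010348 was 47.0%, 80.4% and 58.2% in mouse 1, 66.0%, 63.8% and 63.4% in mouse 2, and 32.5% and 94.0% in mouse 3. The lowest and the highest share of all 8 libraries thus came from the same mouse. In FPKM, NM_146072 was at 2.35 in library 1 of mouse 3 and at 0.210 in library 2, whereas the summed Grik1 level of these libraries differed by 0.413%. The deposited read depth on NM_146072 was 0.434 to 4.68 reads per base, which corresponds to an estimated 37.8 to 407 sequenced bases on the 87-base exon in a library. The median half-width of the deposited confidence bounds was 21.0% of the value for NM_010348 and 30.0% for NM_146072. NM_010348 was the higher of the 2 Grik1 transcripts in 6 of 8 libraries. In libraries 1 and 3 of mouse 1 their bounds overlapped, so the order was not resolved there. In mouse 3 the bounds did not overlap in either library, but the order was opposite. They were 0.720 to 1.55 FPKM for NM_010348 against 1.83 to 2.88 for NM_146072 in library 1. In library 2 they were 2.73 to 3.85 against 0.0260 to 0.395. The change between these libraries thus exceeded the deposited bounds, and its cause was not tested.

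Grik2, the gene of GluK2, lies on the minus strand of chromosome 10 (chr10:49094833-49788766, GRCm38). Its level was 11.8, 12.4 and 12.7 FPKM in mouse 1, 12.2, 11.9 and 11.6 FPKM in mouse 2, and 10.3 and 10.7 FPKM in mouse 3. As for Grik1, both libraries of mouse 3 were below the others, here by a smaller margin relative to the level. The transcript without the alternative exon, NM_001111268, made up 89.4 ± 2.48% of Grik2 FPKM, with libraries between 82.0% and 95.4%. The transcript whose reading frame ends in the exon, NM_010349, made up 10.6 ± 2.48%, with libraries between 4.64% and 18.0%. In contrast to Grik1, the order of the 2 Grik2 transcripts was the same in 8 of 8 libraries. The median half-width of the deposited bounds was 9.35% for NM_001111268 and 30.9% for NM_010349.

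**Figure D4:**
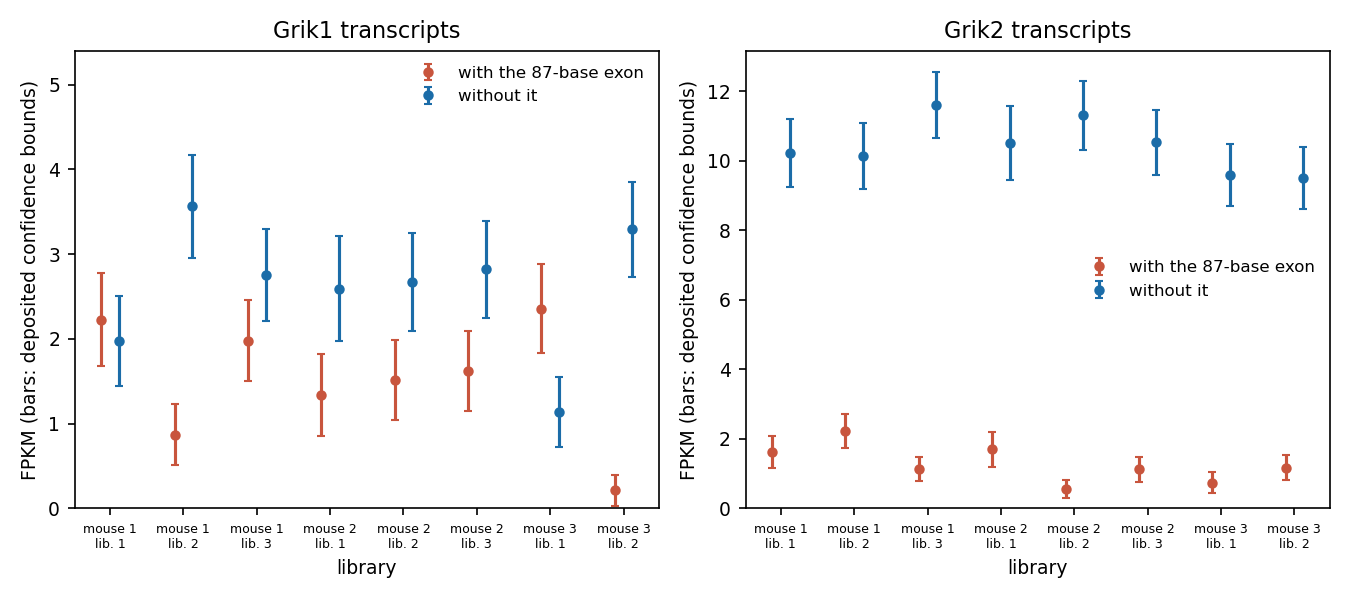
FPKM of the Grik1 and Grik2 transcripts with (red) and without (blue) the 87-base exon in each library, with the confidence bounds deposited by the authors as bars. The Grik1 transcripts change order between libraries, most visibly between the 2 libraries of mouse 3, while the Grik2 transcript without the exon is the higher in all 8.

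Grik3, which encodes GluK3, lies on the plus strand of chromosome 4 (chr4:125490700-125714173, GRCm38). Its level was 8.22, 7.86 and 8.10 FPKM in mouse 1, 8.32, 8.59 and 8.29 FPKM in mouse 2, and 6.70 and 3.85 FPKM in mouse 3. The 6 libraries of mice 1 and 2 lay between 7.86 and 8.59 FPKM, and both libraries of mouse 3 were below them, library 2 by far. The Grik3 transcript was the longest of the group at 8842 bases, and 2.75% of the genes tested had a transcript as long. Library 2 of mouse 3 was also the library in which levels fell most with transcript length.

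Grik5 encodes GluK5 and lies on the minus strand of chromosome 7 (chr7:25009849-25072346, GRCm38). It was measured at 35.3, 37.2 and 38.0 FPKM in mouse 1, 28.3, 35.7 and 37.7 FPKM in mouse 2, and 39.8 and 33.2 FPKM in mouse 3. The highest value came from mouse 3 and the lowest from library 1 of mouse 2, and the 3 mice overlapped. Grik4, the gene of GluK4, lies on the minus strand of chromosome 9 (chr9:42518135-42944493, GRCm38). Grik4 was at 6.15, 6.02 and 6.53 FPKM in mouse 1, 3.87, 5.74 and 6.70 FPKM in mouse 2, and 7.0 and 5.67 FPKM in mouse 3. Its pattern over the libraries had the same extremes as that of Grik5, the lowest in library 1 of mouse 2 and the highest in library 1 of mouse 3. The coding sequences of the 2 high-affinity subunits were 72.3% identical, and their levels differed 5.96-fold. In comparison, the coding sequences of the low-affinity subunits were 71.3% to 72.5% identical to each other and 59.6% to 64.1% identical to those of the high-affinity subunits. Identity was counted over aligned bases, with gaps left out. By this measure the Neto coding sequences were 63.7% to 66.7% identical to those of the kainate subunits. The values between low-affinity and high-affinity subunits therefore do not by themselves show relatedness. The longest run of bases shared by any 2 of the 8 coding sequences was 38.

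Grid1 encodes GluD1, lies on the plus strand of chromosome 14 (chr14:34820108-35583379, GRCm38) and had the longest locus of the group, 760980 bases in the deposited table, a length reached by 0.600% of the genes tested. Its level was 15.1, 15.8 and 15.2 FPKM in mouse 1, 13.0, 16.8 and 15.9 FPKM in mouse 2, and 15.4 and 10.8 FPKM in mouse 3. The mice overlapped, and the lower mean of mouse 3 came from library 2.

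Neto1 lies on the plus strand of chromosome 18 (chr18:86394952-86506718, GRCm38) and Neto2 on the minus strand of chromosome 8 (chr8:85636588-85700924, GRCm38). Neto1 was at 16.1, 18.6 and 16.5 FPKM in mouse 1, 16.2, 16.2 and 16.9 FPKM in mouse 2, and 13.7 and 11.1 FPKM in mouse 3. Both libraries of mouse 3 were below the 6 others. Neto2 was at 14.2, 15.1 and 14.2 FPKM in mouse 1, 15.2, 13.0 and 15.1 FPKM in mouse 2, and 12.1 and 13.2 FPKM in mouse 3, and here the mice overlapped. Neto1 made up 52.3 ± 2.45% of the summed Neto FPKM. It was the higher of the pair in 7 of 8 libraries, the exception being library 2 of mouse 3 at 45.8%.

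Several of these levels rest on transcript models shorter than those of the GENCODE annotation. The models in the deposited table were 4785 bases for Grik2 NM_001111268, 3531 for Neto1, 3428 for Grid1 and 3488 for Grik4, against 9427, 8352, 5720 and 5887 bases in the annotation. For Grik2 NM_010349 the order was the opposite, 4872 bases in the table and 3083 in the annotation. The effect of the model length on levels and transcript shares was not tested. Annotated exons of other genes overlapped 59 exonic bases of Grik4 (Gm24420, on the same strand) and 219 of Neto1 (AC113599.1, on the opposite strand), and none in the other genes.

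To ask whether individual mice differed in these levels, a moderated F-test (limma) was run on log2(FPKM + 1) of the 13001 genes averaging 1 FPKM or more. Genes were called at a Benjamini-Hochberg adjusted p below 0.05. Libraries of a mouse are not separate animals, so the p-values compare these 3 mice with the spread between their libraries. Of the 8 genes, 2 differed between the mice, Grik3 and Neto1, and both were lower in mouse 3. Over all genes tested, 25.5% differed, 11.3% with a lower and 14.1% with a higher level in mouse 3 than in mice 1 and 2, so the count of 2 of 8 was close to the background. Grik3 fell by 0.59 ± 0.147 (SE) on the log2(FPKM + 1) scale in mouse 3 relative to the mean of mice 1 and 2 (adjusted p = 0.0440, limma). Neto1 fell by 0.41 ± 0.0944 (adjusted p = 0.0347, limma). The median difference of all genes was 0.02.

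The difference of mouse 3 from mice 1 and 2 on the same scale was -0.24 ± 0.0752 for Grik1 (adjusted p = 0.0811, limma), -0.19 ± 0.0684 for Grik2 (0.137), -0.22 ± 0.134 for Grid1 (0.417), -0.18 ± 0.0843 for Neto2 (0.265), 0.11 ± 0.159 for Grik4 (0.527) and 0.05 ± 0.119 for Grik5 (0.654). None of these 6 passed the test. The 2 libraries of mouse 3 lay below the 6 others for 4 of the 8 genes, as they did for 21.7% of the genes tested, and above them for 0 of the 8, against 26.5% of the genes tested. At the level of transcripts, 0 of the 10 differed between the mice (limma), against 7.17% of the 16436 transcripts tested, 3.02% lower and 4.16% higher in mouse 3. The smallest adjusted p among the 10 were 0.0873 for the single transcript of Neto1 and 0.106 for that of Grik3 (limma).

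Both calls depended on which libraries were included. Without library 2 of mouse 3, the number of genes that differed dropped from 3310 to 126, the Grik3 difference was -0.26 (adjusted p = 0.142, limma) and that of Neto1 -0.27 (adjusted p = 0.223, limma). Without library 1 of mouse 3 the differences were larger, -0.93 for Grik3 (adjusted p = 0.00475, limma) and -0.55 for Neto1 (adjusted p = 0.0175, limma). With 1 library left out at a time, Grik3 passed the threshold in 1 of 8 fits, that without library 1 of mouse 3 (adjusted p from 0.00475 to 0.142 over the fits, limma). Neto1 passed in 2 of 8, those without library 1 of mouse 2 and without library 1 of mouse 3 (adjusted p from 0.0175 to 0.223, limma), and leaving out any of the other libraries ended the call. In the 6 fits without a library of mouse 1 or 2 the differences themselves stayed at -0.60 to -0.59 for Grik3 and -0.43 to -0.38 for Neto1. The number of genes called was 1671 to 1909 without a library of mouse 1. Over all 15 alternatives Grik3 passed in 3 and Neto1 in 8, and the Grik3 call was also lost with a pseudocount of 0.1 (adjusted p = 0.0584, limma), without the filter on low values (0.0825) and with the highest transcript in place of the sum (0.0551). After the trend with transcript length was removed from each library, the Neto1 difference was -0.36 (adjusted p = 0.0418, limma), that of Grik3 was -0.33 (adjusted p = 0.0899, limma), and those of Grik2 and Neto2 were -0.06 and -0.02. All 8 genes had transcripts longer than the median of 2847 bases. With values rescaled to TPM, 6 of the 8 genes passed, all lower in mouse 3, against 42.3% of all genes tested. The median difference of all genes was then -0.26. Relative to this median, the 6 genes differed by -0.68 (Grik3), -0.46 (Neto1), -0.30 (Grik1), -0.27 (Grid1), -0.23 (Grik2) and -0.23 (Neto2). Grik4 differed from it by 0.10 and Grik5 by 0.01. Of the calls made under TPM, 86.9% were lower in mouse 3, against 44.6% under FPKM.

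**Figure D5:**
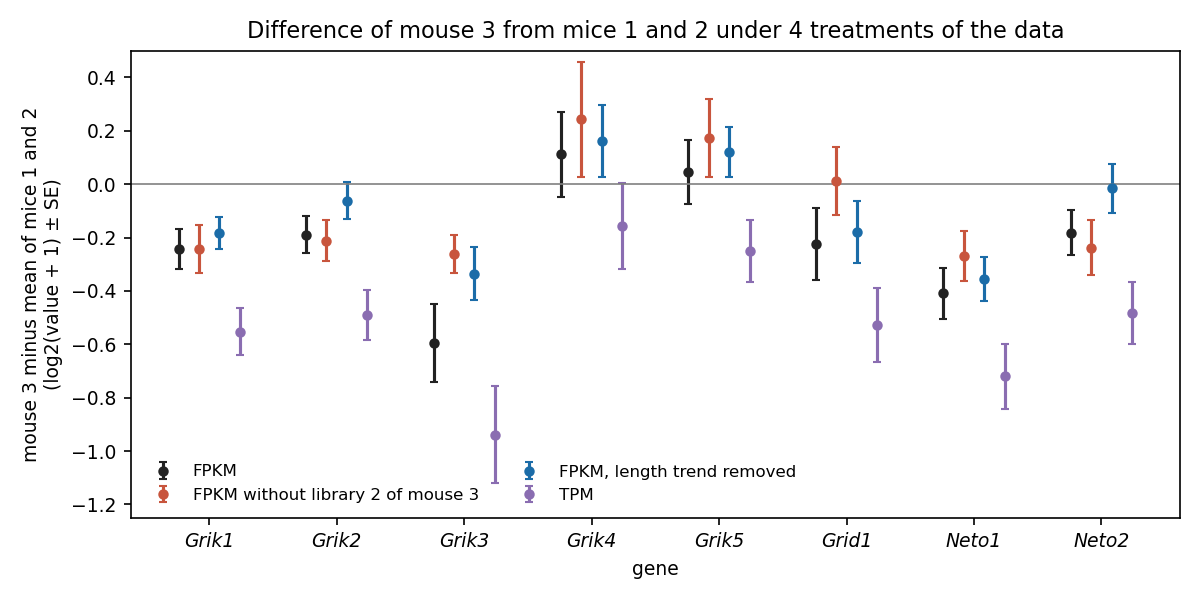
Difference of mouse 3 from the mean of mice 1 and 2 for each gene (y axis, log2(value + 1), mean ± SE of the limma fit) from FPKM, from FPKM without library 2 of mouse 3, from FPKM after removal of the length trend and from TPM. Grik1, Grik2, Grik3, Neto1 and Neto2 lie below 0 under all 4, with Grik2 at -0.06 and Neto2 at -0.02 after removal of the length trend. Grik4 and Grik5 lie below 0 under TPM but at 0.10 and 0.01 relative to the TPM median of all genes. Grik3 is at -0.59 with all libraries and at -0.26 without library 2 of mouse 3.

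Other genes of the glutamate receptor system were examined in 6 lists. Of the 34 genes tested in them, 11 differed between the mice, beside the 25.5% of all genes. Among the 4 AMPA subunits, 2 fell in mouse 3, Gria2 and Gria3, with a list median of -0.14. Gria1, the most abundant, was at 82.2 ± 7.70 FPKM and 0.23 ± 0.0676 higher in mouse 3 on the log2 scale (adjusted p = 0.0825, limma), and Gria2, which limits the calcium permeability of AMPA receptors, fell by 0.67 ± 0.0838 (adjusted p = 0.00699, limma). Among the NMDA subunits, 2 of 6 tested fell, Grin1 and Grin2d, with a median of -0.37. Grin1, the obligatory NMDA subunit, was at 52.3 ± 10.6 FPKM and fell by 0.54 ± 0.123 (adjusted p = 0.0325, limma).

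Another list held extracellular partners of delta and kainate receptors. Cbln1, a secreted cerebellin that bridges neurexins and delta receptors, had the highest level, 54.2 ± 2.25 FPKM, with a difference of 0.08 ± 0.0821 (adjusted p = 0.601, limma). Nrxn3, a presynaptic neurexin, fell by 0.75 ± 0.0882 (adjusted p = 0.00629, limma). Of 8 scaffold and adhesion genes, 2 fell, Cask and Grip1, and 1 rose, with a median of -0.01. Grip1, a PDZ protein, fell by 0.50 ± 0.0845 (adjusted p = 0.0127, limma) from a mean level of 3.33 ± 0.834 FPKM. The gene that rose was Dlg4, which encodes the postsynaptic scaffold PSD-95, at 169 ± 20.2 FPKM and by 0.29 ± 0.0692 (adjusted p = 0.0408, limma).

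Of 6 genes for receptor turnover and SUMOylation, 1 fell, with a median of -0.07. The gene was Cul3, a ubiquitin ligase scaffold, at 43.2 ± 6.16 FPKM, which fell by 0.36 ± 0.0756 (adjusted p = 0.0260, limma). Of the 3 genes of the adenosine deaminase family that includes RNA-editing enzymes, Adarb2 fell by 0.39 ± 0.0793 (adjusted p = 0.0221, limma) and had 4.18 ± 0.786 FPKM. Adarb1, which encodes the enzyme that edits the Q/R site of glutamate receptor RNA, was at 40.7 ± 3.01 FPKM with a difference of 0.18 ± 0.0765 (adjusted p = 0.225, limma). Without library 2 of mouse 3, 1 of these 34 genes differed between the mice, against 0.969% of all genes tested, and under TPM 22 did, against 42.3%.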

How the data were processed

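The authors deposited, for 34535 RefSeq transcripts in each of 8 libraries, FPKM with confidence bounds and a coverage signal (read depth per base, not scaled for library size). The submitters' processing notes name TopHat, Cufflinks and the mm10 build. Tool versions, annotation version, strand setting and read length are not given in the sources used here. Reads were divided between the transcripts of a gene by the authors' estimation, so the sum is firmer than its parts. Whole-brain RNA was used, with Kapa mRNA HyperPrep library kits. FPKM are not counts, so no counting interval was computed.

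FPKM was summed per gene and averaged per mouse and then over the mice. Bases read are coverage multiplied by transcript length. Genes and transcripts with a mean of at least 1 FPKM were tested with limma (version 3.58.1, R 4.3.3) on log2(FPKM + 1). The test was checked on simulated data. TPM here is FPKM rescaled to an equal total. Other pseudocounts and filters, the highest transcript, removal of the length trend, a block for library number, a prior variance trend (chosen after seeing the data) and each library left out were tried. Exons, coding lengths and sequences come from GENCODE on GRCm38, coding sequences being aligned globally with Biopython 1.88. Gene members and lists were chosen with earlier results of these data known. All 8 genes and their transcripts are named. From each list, the gene with the highest mean, the gene with the smallest adjusted p and called genes against the prevailing direction are described, and the other called genes are listed by name only. A few genes that this rule or the calls would name are not reported here.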

Additional observations from a re-analysis of the deposited data

Results flagged for a closer look

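Of 26 measures of the group, 5 had 1 library whose gap to its nearest neighbour, divided by the range of all 8 libraries, exceeded Dixon's 95% critical value for 8 values. About 1 in 20 measures would do so by chance if the 8 libraries were independent draws from 1 population. They come from 3 mice, so this rate need not hold here. The measures also overlap, since the shares and sums are built from the same genes. Grik3 was at 3.85 FPKM in library 2 of mouse 3, where the next lowest library was at 6.70. The summed NMDA receptor subunits (60.1 FPKM, next 82.7) and the share of Neto1 in the summed Neto FPKM (45.8%, next 51.6%) were also lowest there. Grik4 was at 3.87 FPKM in library 1 of mouse 2, next to 5.67. The share of Grik1 among the kainate subunits was 5.18% in library 1 of mouse 3, next to 6.15%. Technical causes of these values were not tested.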

How the results depend on the processing

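The order of the 8 mean levels was the same in 10 of 11 alternatives, and without library 1 of mouse 3 Grid1 (13.81 FPKM) fell below Neto2 (14.03 FPKM). The summed kainate subunit level was 64.6 FPKM, 62.9 to 66.3 with 1 library left out, and 188 in TPM, a change of unit. The high-affinity share stayed between 64.0% and 65.3%. The Grik1 share of NM_010348 was 52.9% to 73.4% with 1 library left out, and the Grik2 share of NM_001111268 was 88.6% to 90.1%. Of the 8 genes, 2 differed between the mice in the analysis reported, 1 each (Neto1) with a pseudocount of 0.1, without a filter, with the length trend removed and with the highest transcript in place of the sum, 6 under TPM, and 0 to 2 with 1 library left out. Genes called numbered 3310, 5493 under TPM and 126 to 3873 with 1 library left out. Genes called in the 6 lists numbered 11, 22 under TPM, 7 with the highest transcript and 1 to 14 with 1 library left out. Transcripts called numbered 1179, 713 with a pseudocount of 0.1, 3418 under TPM (3 of the 10), 1875 with a prior variance trend, and 1 to 1741 with 1 library left out (0 to 1 of the 10). The share of gene calls lower in mouse 3 was 44.6% as reported and 86.9% under TPM. Under TPM the differences of Grik4 (-0.16) and Grik5 (-0.25) and of their single transcripts reversed, but relative to the median of all genes under TPM (-0.26) they were 0.10 and 0.01. With the highest transcript in place of the sum, that of Grik1 reversed (0.016). With 1 library left out, differences ranged from -0.019 to 0.24 for Grik4, -0.081 to 0.17 for Grik5 and -0.46 to 0.011 for Grid1 (the same for their single transcripts), from -0.79 to 0.21 for NM_010348 and from -1.08 to 0.39 for NM_146072. The cause was not tested. Where a left-out library leaves mouse 3 with 1, that library is assumed to vary like those of the other mice.

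The correlation of deviations from the mouse means was 0.00276 to 0.107 between same-numbered libraries. It was -0.135 to 0.0645 between differently numbered ones. Deviations within a mouse sum to 0, so these values are not independent and do not settle whether the numbers pair the libraries. With a replicate block for the number, 0 of the 8 genes differed between the mice (adjusted p = 0.0602 for Grik3 and 0.0769 for Neto1, limma), with 2995 genes, 5 list genes and 1 transcript called. Block and left-out fits have fewer residual degrees of freedom, and the share of block calls lower in mouse 3 was 32.1%. The transcripts of Grik1 and of Grik2 are set apart by 1 exon of 87 bases each, and the part of depth in the spread of their shares was not tested.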
